A study of Mus musculus with 6 samples.

Results

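The Ms4a genes encode small membrane proteins with 4 predicted passes through the membrane, and in mouse they lie side by side on chromosome 19. The 9 genes Ms4a3, Ms4a4a, Ms4a4c, Ms4a6b, Ms4a6c, Ms4a6d, Ms4a7, Ms4a8a and Ms4a14 were taken by name from a table of 54532 genes. They had been proposed with the cisplatin and PBS values of these same libraries in view, so the members were selected on measured values and their differences between the groups are given as a description, with no p-value. Calls of members come from the fit over all genes and are only counted beside the share of all genes called.

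Family members are known as surface markers of particular blood cell lineages and as partners of signalling receptors in the membrane. Ms4a1 encodes the B-cell antigen CD20, and Ms4a2 encodes the beta chain of the high-affinity IgE receptor of mast cells and basophils. Ms4a3 marks granulocyte-monocyte progenitors, the bone marrow precursors of neutrophils and monocytes, while Ms4a4a, Ms4a6d and Ms4a7 are genes of monocytes and macrophages.

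The samples were 6 RNA libraries labelled bone marrow-derived macrophages (BMDM) from mouse, all collected after culture together with ID8 cells, a mouse ovarian surface epithelial tumour line of a female C57BL/6 mouse. Pretreatment of the ID8 cells was 40 µM cisplatin, a DNA-crosslinking chemotherapy drug, for 3 libraries and PBS, the control, for the other 3. These are called the cisplatin and PBS libraries below, although cisplatin was given to the tumour cells before co-culture. The study's methods describe the marrow cells as monocytes of C57BL/6 mice kept in serum-containing medium and name no sort that would separate them from ID8 cells. The sex of the marrow donors, the length of the co-culture and whether the replicates came from separate mice or cultures are not given in the sources used here, so p-values measure only the spread between these samples.

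The values are FPKM, fragments per kilobase of gene scaled to library size, which allow levels of different genes to be compared per length. Whole reads could be recovered from the FPKM, and the libraries held between 15776238 and 17924686 reads in genes. Macrophage genes were present in every library (Lyz2, lysozyme, at 1153 FPKM or above and Adgre1 at 102 or above). In contrast, Cd163, Folr2 and Timd4, markers of tissue-resident macrophages, were below 1 FPKM in all 6. Genes of other cell types were present too. The 7 B-cell markers summed to between 492 and 500 FPKM in the cisplatin libraries and between 233 and 241 in the PBS libraries. The 11 ID8 and mesothelial markers summed to between 231 and 251 FPKM with cisplatin and between 1283 and 1385 with PBS. In bulk RNA of this kind, fewer cells of a type and less RNA per cell cannot be told apart.

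All 9 genes lie on chromosome 19 of GRCm38, among 19 family genes spread over 679 kb (chr19:10962293-11640851). Ms4a8a (chr19:11067471-11081102), Ms4a14 (chr19:11301249-11314454), Ms4a7 (chr19:11321039-11336146), Ms4a6d (chr19:11586604-11604849) and Ms4a3 (chr19:11629496-11640851) are on the minus strand. Ms4a4a (chr19:11375523-11392790), Ms4a4c (chr19:11404770-11427246), Ms4a6c (chr19:11469366-11482192) and Ms4a6b (chr19:11516512-11531256) are on the plus strand, in 1 block that also holds the family genes Ms4a4b and Ms4a4d, which are not among the 9. The longest coding transcript has 7 exons in 7 of the 9 members, 8 in Ms4a6b and 6 in Ms4a14.

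The stretch of 250 bases before the RefSeq start was available on GRCm38 for 8 members, all but Ms4a6d. The sequences of a pair of close relatives among the members are shown first, because they resemble each other more than any other pair of family genes did by longest shared run. Between Ms4a6b (chr19:11518309-11518558, plus strand) and Ms4a6c (chr19:11469118-11469367, plus strand) 148 of 180 aligned positions were identical, and the longest run without a difference, shown in capitals, was 48 bases.

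Ms4a6b: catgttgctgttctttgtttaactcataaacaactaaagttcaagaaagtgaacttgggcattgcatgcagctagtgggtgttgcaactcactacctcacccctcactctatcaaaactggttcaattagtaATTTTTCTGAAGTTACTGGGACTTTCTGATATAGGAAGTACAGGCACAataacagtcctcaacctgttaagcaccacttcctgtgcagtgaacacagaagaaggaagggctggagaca

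Ms4a6c: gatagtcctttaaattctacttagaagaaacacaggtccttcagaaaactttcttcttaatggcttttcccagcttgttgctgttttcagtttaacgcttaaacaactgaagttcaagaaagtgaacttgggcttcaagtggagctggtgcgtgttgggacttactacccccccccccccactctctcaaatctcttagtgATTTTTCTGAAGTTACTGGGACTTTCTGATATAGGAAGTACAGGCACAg

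Ms4a4c (chr19:11407411-11407660, plus strand) was closest to its neighbour Ms4a4b (chr19:11443308-11443557, plus strand), with 117 of 133 aligned positions identical and a longest shared run of 20 bases, again in capitals. Over the 171 pairs of 19 family genes with a sequence, Tmem176a and Tmem176b included, the median longest shared run was 8 bases, and after these 2 pairs the next was 12. The RefSeq starts of Ms4a6b and Ms4a4c lie 2047 and 2891 bases inside the gene as the table draws it, so other starts exist for both.

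Ms4a4c: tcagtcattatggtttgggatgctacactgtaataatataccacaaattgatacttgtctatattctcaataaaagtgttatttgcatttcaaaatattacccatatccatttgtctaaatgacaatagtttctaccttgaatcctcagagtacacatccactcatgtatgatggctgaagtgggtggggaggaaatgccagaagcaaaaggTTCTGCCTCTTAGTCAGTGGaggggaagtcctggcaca

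Ms4a4b: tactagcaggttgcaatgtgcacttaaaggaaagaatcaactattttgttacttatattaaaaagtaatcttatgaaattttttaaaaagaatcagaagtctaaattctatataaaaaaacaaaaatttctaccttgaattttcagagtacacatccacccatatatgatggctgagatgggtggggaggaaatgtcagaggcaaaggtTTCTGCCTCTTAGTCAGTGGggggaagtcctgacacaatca

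The member with the largest difference between the groups, Ms4a3 (chr19:11640852-11641101, minus strand), the most abundant member after Ms4a6d, Ms4a4a (chr19:11375238-11375487, plus strand), and the gene of the chromosome 19 cluster that was called lower, Ms4a4d (chr19:11536544-11536793, plus strand), are shown for comparison. None of these 3 held a shared run of more than 12 bases with any other family gene.

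Ms4a3: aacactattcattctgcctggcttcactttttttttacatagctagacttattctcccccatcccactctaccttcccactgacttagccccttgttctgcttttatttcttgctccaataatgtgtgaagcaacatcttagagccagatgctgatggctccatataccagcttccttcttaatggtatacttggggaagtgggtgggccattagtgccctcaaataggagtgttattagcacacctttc

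Ms4a4a: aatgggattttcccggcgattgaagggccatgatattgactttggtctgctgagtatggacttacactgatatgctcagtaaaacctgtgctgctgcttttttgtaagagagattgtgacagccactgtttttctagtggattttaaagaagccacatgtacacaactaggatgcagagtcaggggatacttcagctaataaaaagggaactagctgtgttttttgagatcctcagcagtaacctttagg

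Ms4a4d: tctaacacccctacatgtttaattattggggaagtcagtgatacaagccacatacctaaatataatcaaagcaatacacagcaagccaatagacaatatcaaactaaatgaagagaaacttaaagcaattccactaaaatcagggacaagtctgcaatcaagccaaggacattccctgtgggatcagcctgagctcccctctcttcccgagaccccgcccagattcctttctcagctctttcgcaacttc

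Short motifs of 4 factors were searched on both strands of these windows, and 32851 RefSeq windows of the same length gave the background. GAGGAA, the core bound by the myeloid factor PU.1, was in 2 of 8 members (Ms4a4c and Ms4a14) and in 23.3% of all windows. TGANTCA, bound by AP-1, was in 2 of 8 (Ms4a8a and Ms4a14) against 6.75%. TTGCNNAA, for C/EBP factors, was in 0 of 8 against 9.56%, and the interferon-stimulated response element in 0 of 8 against 2.98%. In Ms4a4c and Ms4a4b the GAGGAA match began 61 and 64 bases before the start, within the stretch in which the sequences align. These matches describe letters only.

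All 7 members that could be tested were higher in the cisplatin libraries, by 1.29-fold for Ms4a4c up to 10.5-fold for Ms4a3. A gene was tested if 3 or more libraries reached 1 FPKM, which 13441 genes did. Called means a Benjamini-Hochberg adjusted p below 0.05 in limma on log2(FPKM + 1) and a fold change of at least 2 on that scale. The study set the same cut-offs in DESeq2, another measure, so its calls are not directly comparable. Of the 7 members, 4 were called higher (Ms4a3, Ms4a4a, Ms4a6c and Ms4a6d) and 0 lower, where 4.67% of all tested genes were called higher and 11.3% lower. The 3 cisplatin values lay above the 3 PBS values in 7 of 7, where 35.2% of tested genes were separated in this direction and 37.2% in the other. Because this contrast chose the members, nothing is read from these counts. The median log2 fold change of the 7 was 1.15, and that of all tested genes was -0.0011.

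**Figure D1:**
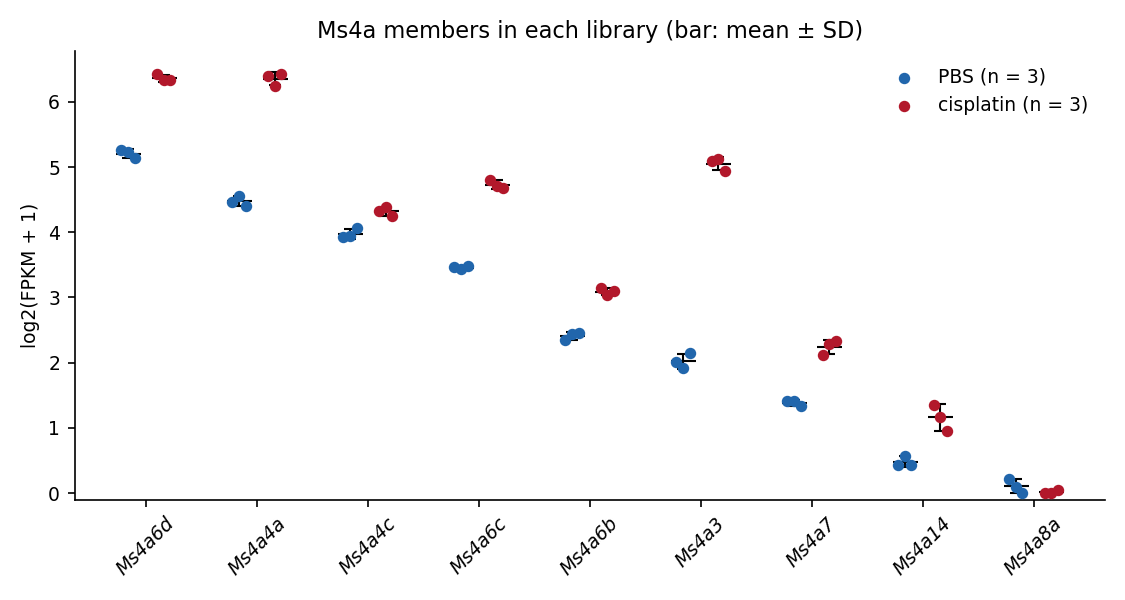
Each point is 1 library, with log2(FPKM + 1) on the vertical axis and the 9 members on the horizontal axis in order of their PBS level. Horizontal bars are means and error bars SD (n = 3). The cisplatin points lie above the PBS points for the 7 tested members and for Ms4a14, and Ms4a8a sits near 0 in both groups. Of all tested genes 35.2% were separated in this direction. Nothing is read from the count, because this contrast chose the members. When the libraries are scaled by the Y-linked genes, the log2 fold changes of Ms4a4c and Ms4a6b are -0.60 and -0.17. That of Ms4a6b lies within the spread of the Y-linked genes themselves.

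Ms4a3, the progenitor marker, encodes a protein known to bind the phosphatase KAP (Cdkn3) and to act on the cell cycle kinase Cdk2. It was measured at 33.2, 33.7 and 29.7 FPKM in the cisplatin libraries and at 3.03, 2.76 and 3.42 FPKM in the PBS libraries. The lowest cisplatin library was thus far above the highest PBS library, on 3034 reads against 282. The means were 32.2 ± 2.19 and 3.07 ± 0.33 FPKM (SD, n = 3), a 10.5-fold difference and a log2 fold change of 3.03 on log2(FPKM + 1). It moved from the sixth place among the members with PBS to the third with cisplatin, ahead of Ms4a6c, Ms4a4c and Ms4a6b.

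Ms4a4a is a macrophage surface gene whose product associates with the beta-glucan receptor dectin-1 (Clec7a). Its values were 83.6, 74.4 and 85.2 FPKM with cisplatin and 21.2, 22.5 and 20.1 FPKM with PBS. The groups were well apart, with means of 81.0 ± 5.82 and 21.3 ± 1.19 FPKM and a 3.81-fold difference (log2 fold change 1.88). With cisplatin its range overlapped that of Ms4a6d, so the order of the 2 most abundant members was not resolved there, whereas with PBS Ms4a6d was above it in every library.

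Ms4a6d, a gene of macrophages, was the most abundant member in both groups by mean level. It stood at 84.8, 79.6 and 79.5 FPKM with cisplatin and 37.4, 36.4 and 34.2 FPKM with PBS. All 3 cisplatin libraries were above all 3 PBS libraries, with means of 81.3 ± 2.99 and 36.0 ± 1.65 FPKM and a 2.26-fold difference (log2 fold change 1.15).

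Ms4a6c is the relative of Ms4a6b shown above. Its values were 27.0, 25.1 and 24.7 FPKM with cisplatin and 10.0, 9.77 and 10.2 FPKM with PBS, without overlap. The means of 25.6 ± 1.23 and 9.98 ± 0.20 FPKM differed 2.56-fold (log2 fold change 1.28). The gene overlaps BE692007 on the opposite strand, which had 9.77, 9.14 and 9.23 FPKM with cisplatin and 2.84, 3.30 and 3.12 with PBS. Of the 50-base windows of the Ms4a6c transcripts 49.6% also occurred in BE692007, and the strand setting of the counting is not given in the sources used here, so reads from the shared part could not be assigned to 1 of these 2 genes and the Ms4a6c level is uncertain.

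Ms4a6b, which shares the 48-base run with Ms4a6c, differed less. It was at 7.81, 7.18 and 7.57 FPKM with cisplatin and at 4.08, 4.45 and 4.49 FPKM with PBS. The groups did not overlap, and the means of 7.52 ± 0.32 and 4.34 ± 0.22 FPKM differed 1.73-fold (log2 fold change 0.67). Of the 50-base windows of Ms4a6c, 5.85% occurred in Ms4a6b.

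Ms4a4c had the smallest difference of the 7. Its values were 19.01, 19.96 and 17.95 FPKM with cisplatin and 14.2, 14.3 and 15.7 FPKM with PBS. The lowest cisplatin value was above the highest PBS value, and the means of 18.97 ± 1.008 and 14.7 ± 0.84 FPKM differed 1.29-fold (log2 fold change 0.35). It was the third most abundant member with PBS and the fifth with cisplatin. Of its 50-base windows, 7.73% also occurred in Ms4a4b.

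Ms4a7, a gene of mature macrophages and microglia, was low. It was at 3.35, 3.86 and 4.04 FPKM with cisplatin and at 1.65, 1.66 and 1.52 FPKM with PBS, on 833 and 350 reads. The groups were separate, with means of 3.75 ± 0.35 and 1.61 ± 0.077 FPKM and a 2.33-fold difference. On log2(FPKM + 1), which understates changes of low genes, the fold change was 0.86 and missed the fold threshold. With a pseudocount of 0.1 it was 1.17 and passed.

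The remaining 2 members were too low to be tested. Ms4a14 had 1.56, 1.24 and 0.94 FPKM with cisplatin and 0.35, 0.49 and 0.35 FPKM with PBS, and the groups did not overlap. These rest on 254 and 78 reads, a ratio of 3.18 after library size (95% counting interval 2.46 to 4.15, which covers counting error only). Ms4a8a, a gene linked to alternatively activated macrophages, had 0, 0 and 1 read with cisplatin and 5, 2 and 0 reads with PBS. The ratio of 0.140 has a counting interval of 0.0031 to 1.09, and 3 reads, the limit that a count of 0 allows, correspond to between 0.0944 and 0.108 FPKM, so no difference was detectable at this depth.

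Summed over the 9 members, the libraries held 260, 245 and 250 FPKM with cisplatin and 92.0, 92.4 and 89.9 FPKM with PBS. The means were 252 ± 7.77 and 91.4 ± 1.32 FPKM, a 2.75-fold difference. On the log2 scale this was 1.46, and 0.46 when the libraries were scaled by the Y-linked genes, as described after the shares. The members' shares of this sum are given next. Ms4a3 made up 12.8% ± 0.93 of it with cisplatin and 3.36% ± 0.41 with PBS (SD, n = 3), and Ms4a4a 32.2% ± 1.89 and 23.2% ± 1.007. Ms4a4c went from 16.1% ± 1.16 with PBS to 7.55% ± 0.52 with cisplatin, and Ms4a6d from 39.3% ± 1.33 to 32.3% ± 0.39. The shares of 7 of the 9 members did not overlap between the groups, and those of Ms4a8a and Ms4a14 did. Since 35.2% and 37.2% of all tested genes were separated upwards and downwards in FPKM and this contrast chose the members, nothing is read from that count. The shares do not depend on a factor applied to a whole library.

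**Figure D2:**
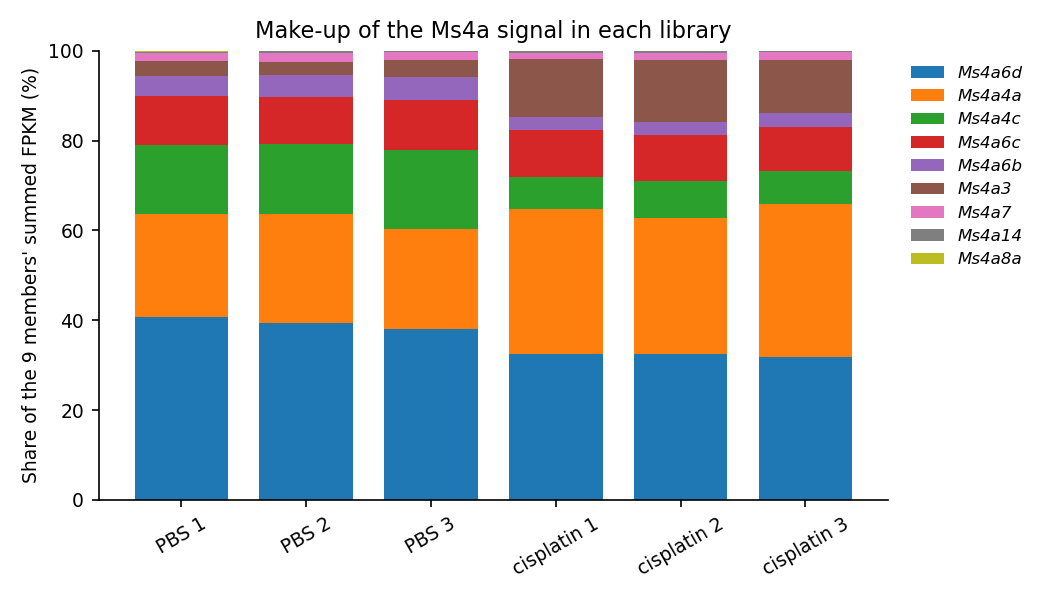
Stacked bars give the share of each member in the summed FPKM of the 9 members, in percent, for each of the 6 libraries. Ms4a3 makes up 3.36% of the sum in the PBS libraries and 12.8% in the cisplatin libraries (means), and Ms4a4c 16.1% and 7.55%.

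Genes on the Y chromosome cannot come from the female ID8 line, and they differed between the groups as well. Ddx3y, Eif2s3y, Kdm5d and Uty were higher with cisplatin by 1.66-fold to 2.37-fold in mean FPKM, and their sum was between 41.6 and 42.8 FPKM with cisplatin and between 19.5 and 22.7 with PBS. The tested members spanned 1.29-fold to 10.5-fold, with a median of 2.33-fold. When every library was scaled to an equal mean log2 level of these 4 genes, the log2 fold change was 2.16 for Ms4a3, 0.91 for Ms4a4a, 0.34 for Ms4a6c, 0.18 for Ms4a6d and 0.16 for Ms4a7. That of Ms4a6b was -0.17 and that of Ms4a4c was -0.60. The 4 Y-linked genes themselves lay between -0.25 (Eif2s3y) and 0.23 (Ddx3y). The direction of Ms4a4c thus turned, while those of Ms4a6b, Ms4a6d and Ms4a7 lay within this spread and were not resolved. The scaling takes the Y-linked RNA of the marrow-derived cells as equal in all libraries, which was not tested. Under this scaling the median of all tested genes was -0.83. Ms4a3 was the 1 member that was still called, and the calls of Ms4a4a, Ms4a6c and Ms4a6d were lost. The call of Ms4a6d was also lost when the fit was set against a fold change of 2 itself. How far the share of marrow-derived RNA in each library bears on the members was not tested.

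The remaining family genes, from a list drawn up for this report, did not share one direction. Of 14 listed names 12 were in the table, 6 were tested, 2 were called higher and 3 lower. Ms4a1 had 52.1, 47.7 and 47.1 FPKM with cisplatin and 15.5, 16.2 and 15.6 with PBS, without overlap (log2 fold change 1.58, SE 0.048, limma adjusted p = 4.06e-07). Ms4a2 had 11.3, 13.2 and 13.3 FPKM with cisplatin and 5.66, 4.86 and 4.68 with PBS, also without overlap (log2 fold change 1.16, SE 0.086, limma adjusted p = 2.52e-05). Under the Y-linked scaling these fold changes were 0.62 and 0.28, and neither gene was called.

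Ms4a4d lies in the block of plus-strand genes, 5544 bases beyond Ms4a6b. It had 2.29, 1.81 and 2.24 FPKM with cisplatin and 11.6, 11.2 and 12.1 FPKM with PBS, the reverse of its neighbours (log2 fold change -2.02, SE 0.076, limma adjusted p = 9.95e-07). Under the Y-linked scaling Ms4a4d was at -2.81. Of its 50-base windows 0.546% occurred in another gene. Ms4a4b, a gene of T cells and the closest relative of Ms4a4c in the upstream window, had 1.33, 1.33 and 1.54 FPKM with cisplatin and 1.32, 0.97 and 1.504 with PBS. The groups overlapped, and the 95% interval of its log2 fold change, 0.088, ran from -0.19 to 0.36 (limma adjusted p = 0.525), with a change of sign under the Y-linked scaling. Ms4a10, Ms4a15 and Ms4a18 had 5, 1 and 2 reads over all libraries, and Ms4a5, Ms4a12 and Ms4a13 were listed at 0.

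Tmem176a and Tmem176b, related tetraspan genes on chromosome 6 that overlap each other head to head, were both lower with cisplatin. Tmem176a was at 17.0 ± 0.40 against 57.1 ± 0.29 FPKM (log2 fold change -1.69, limma adjusted p = 9.06e-08) and Tmem176b at 46.2 ± 2.32 against 149 ± 5.30 FPKM (log2 fold change -1.67, limma adjusted p = 2.85e-07). Both were at -2.65 under the Y-linked scaling. Beside the cluster, Ccdc86, a nucleolar protein gene, was at 7.07 ± 0.33 and 3.19 ± 0.13 FPKM. Its log2 fold change of 0.95 missed the fold threshold and was 0.12 under the Y-linked scaling. The other flanking genes Ptgdr2, Oosp2 and Oosp1 were below 0.5 FPKM in all libraries.

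**Figure D3:**
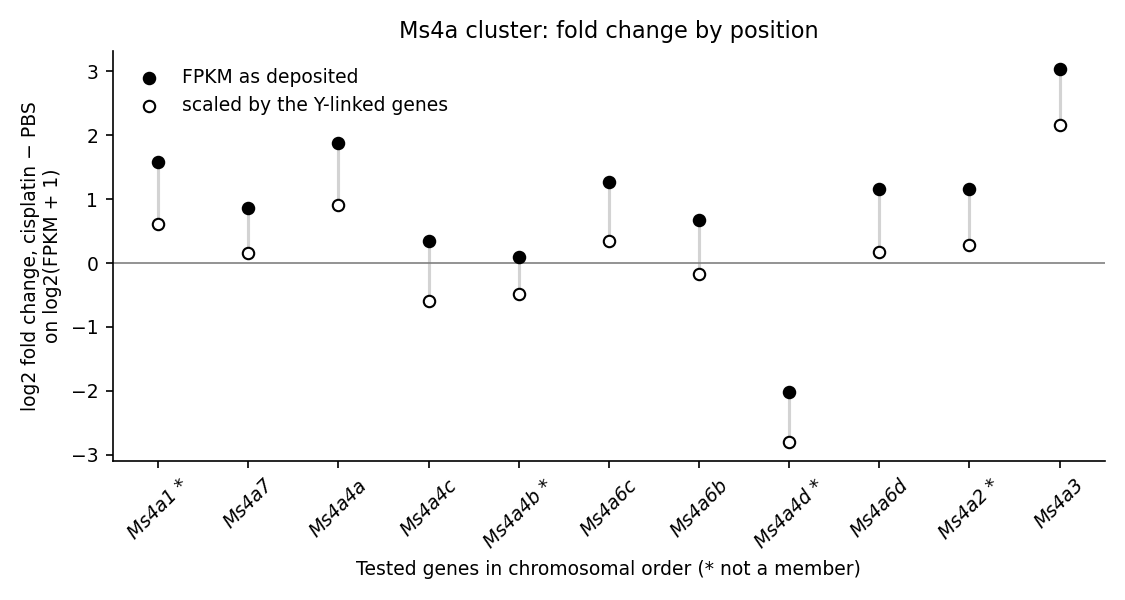
Log2 fold change (cisplatin minus PBS, on log2(FPKM + 1)) of the 11 tested family genes of chromosome 19 in chromosomal order, with filled points for FPKM as deposited and open points after scaling by the Y-linked genes. As deposited, 10 of 11 lie above 0 and Ms4a4d lies at -2.02, and after the scaling Ms4a4c, Ms4a6b and Ms4a4b also lie below 0.

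Genes known to act with Ms4a proteins were described next. Of 11 listed, 10 were tested, 4 were called higher and 1 lower. Among receptors and adaptors of myeloid cells, Clec7a was at 21.7 ± 0.90 FPKM with cisplatin and 5.50 ± 0.40 with PBS (log2 fold change 1.80, limma adjusted p = 6.04e-07). Its fold difference of 3.94 stood beside the 3.81 of Ms4a4a. Trem2, a lipid-sensing receptor, was at 1.60 ± 0.14 and 0.22 ± 0.042 FPKM (log2 fold change 1.09, limma adjusted p = 7.85e-05, and 2.40 with a pseudocount of 0.1), and its adaptor Tyrobp at 272 ± 14.9 and 126 ± 6.28 FPKM (log2 fold change 1.11, limma adjusted p = 3.31e-06). The inflammasome sensor Nlrp3 was at 54.1 ± 2.18 and 17.4 ± 0.69 FPKM (log2 fold change 1.58, limma adjusted p = 3.41e-07). Under the Y-linked scaling none of these 4 was called, with log2 fold changes of 0.90 for Clec7a, 0.70 for Trem2, 0.12 for Tyrobp and 0.62 for Nlrp3. The calls of Trem2 and Tyrobp, and that of Ms4a2, were also lost when the fit was set against a fold change of 2 itself.

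The other tested partners include those of family products that are not among the 9. The IgE receptor gamma chain Fcer1g, which joins the Ms4a2 product in 1 receptor, was at 434 ± 10.7 and 407 ± 22.8 FPKM, and the 95% interval of its log2 fold change of 0.093 was -0.021 to 0.21 (limma adjusted p = 0.126). Fcgr3, a low-affinity IgG receptor, had a log2 fold change of 0.96, and the adhesion receptor Cd44 of 0.33. Cdk2 was at 11.9 ± 0.29 and 10.0 ± 0.76 FPKM (log2 fold change 0.23) and Cdkn3 at 2.19 ± 0.55 and 3.36 ± 0.063 FPKM (log2 fold change -0.47), and neither reached the fold threshold as deposited. Under the Y-linked scaling Cdkn3 was at -1.19 and was called lower. Cd44, Cdk2 and Fcer1g changed sign under the Y-linked scaling, and Fcgr3 was at -0.028, within the spread of the Y-linked genes themselves. Tnfrsf18, the GITR receptor of T cells and a partner of the Ms4a4b product, was at 1.06 ± 0.32 and 5.35 ± 1.15 FPKM (log2 fold change -1.62, limma adjusted p = 0.000139). Its log2 fold change was -2.28 under the Y-linked scaling. Vsig4 was at or near 0.

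Markers of the cells in which the members are known were counted beside them. Of 13 progenitor markers, 10 were called higher and 0 lower, and the list summed to between 642 and 687 FPKM with cisplatin and between 191 and 199 with PBS. Mpo, the myeloperoxidase of granules, had a log2 fold change of 2.63 (limma adjusted p = 6.00e-08) and Prtn3, proteinase 3, of 2.499 (limma adjusted p = 6.68e-08). In mean FPKM the progenitor markers ran from 1.42-fold to 6.47-fold, and Ms4a3 with 10.5-fold was above all 13. Ms4a3 is the member of largest change in a set chosen on this contrast, so nothing is read from this order. Of 15 macrophage markers, 12 were tested, 7 were called higher and 0 lower, and the list summed to between 4247 and 4405 FPKM with cisplatin and between 1647 and 1658 with PBS. Most of this sum was Lyz2 alone, at 3403 to 3551 FPKM with cisplatin and 1153 to 1173 with PBS. The mannose receptor Mrc1 had a log2 fold change of 2.82 (limma adjusted p = 4.61e-07) and the complement gene C1qb of 2.35 (limma adjusted p = 1.45e-06). The common macrophage genes Adgre1 (0.87), Csf1r (0.92), Cd68 (0.20), Fcgr1 (0.69) and Cd14 (0.69 on the log2 scale) were not called. Under the Y-linked scaling they were at -0.12, -0.057, -0.79, -0.27 and -0.30. Those of Adgre1 and Csf1r lie within the spread of the Y-linked genes themselves.

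Markers of other lineages were counted in the same way. Of 9 neutrophil markers 5 were called higher, led by Ngp (1.82) and Camp (1.76 on the log2 scale), and 1 lower, Lcn2, with list sums of 9408 to 9602 FPKM with cisplatin and 5896 to 6010 with PBS. Of 6 tested basophil and mast cell markers, 3 were called higher and 0 lower, led by Cpa3 (1.75) and Mcpt8 (1.58), with sums of 259 to 279 and 124 to 134 FPKM, and Tpsb2 and Cma1 were below 0.5 FPKM in all 6 libraries. Beside these, Ms4a2 had its log2 fold change of 1.16. Of 7 B-cell markers 4 were called higher and 0 lower, led by Cd79a (1.19, not called against a fold change of 2 itself) and Cd79b (1.15), while Ms4a1 had 1.58. In mean FPKM the 7 B-cell markers ran from 1.20-fold to 2.30-fold and Ms4a1 was at 3.11-fold.

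Of 4 tested T-cell markers 0 were called either way in limma, with sums of 13.4 to 15.3 FPKM with cisplatin and 11.6 to 13.5 with PBS, and 3 of them (Cd8a and Trbc2 higher, Lck lower) passed the adjusted p but not the fold threshold. Under the Y-linked scaling Cd8a and Trbc2 turned to -0.27 and -0.43, and Lck was at -1.12 and was called lower. Of 8 tested ID8 and mesothelial markers 0 were called higher and 7 lower, led by the keratin Krt19 (log2 fold change -3.50, limma adjusted p = 7.18e-08) and the transcription factor Wt1 (-3.14, limma adjusted p = 5.39e-08). Over all lists other than the Y-linked one, members left out, 35 genes were called higher and 12 lower as deposited, and 5 and 15 under the Y-linked scaling. The 15 were the 12 with Cdkn3, Lck and Msln added. The 5 were the progenitor genes Mpo, Prtn3 and Ctsg and the macrophage genes Mrc1 and C1qb, so every higher call in the neutrophil, basophil and mast cell, and B-cell lists was lost. The part of these marker shifts in the member values was not tested. Under the Y-linked scaling the median log2 fold change was 0.55 for the progenitor list, 0.51 for the macrophage list, 0.069 for the neutrophil list, 0.060 for the B-cell list, 0.14 for the basophil and mast cell list, -0.53 for the T-cell list (0.17 as deposited), -0.34 for the partners (0.65 as deposited), -3.17 for the ID8 and mesothelial list and 0.18 for the members.

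**Figure D4:**
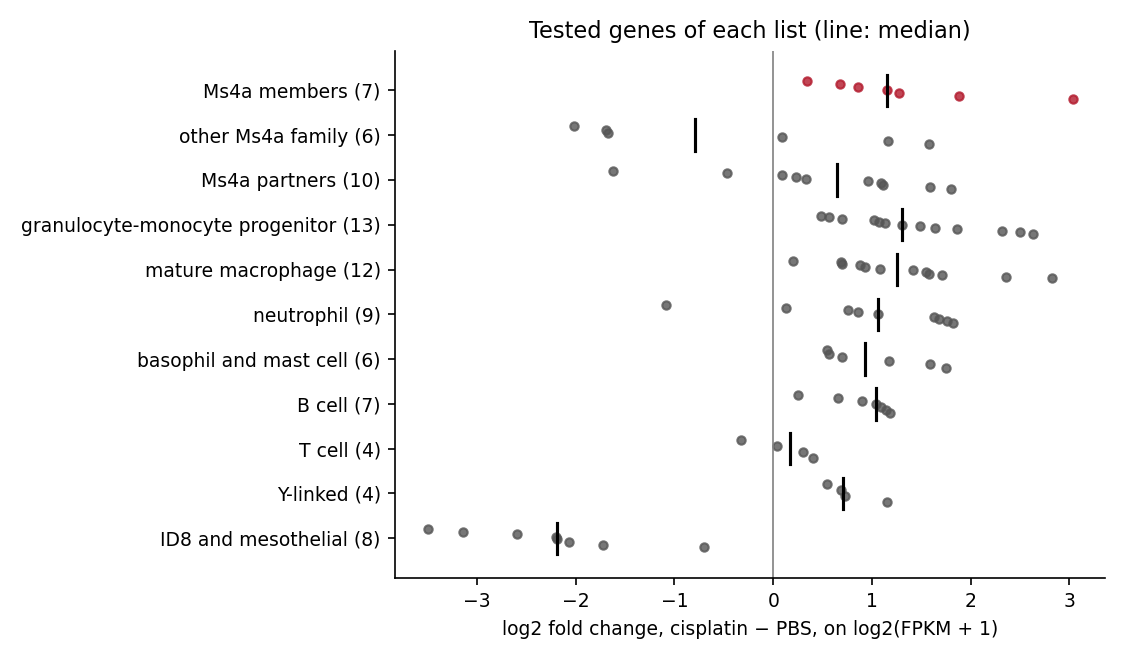
Each point is 1 tested gene, with its log2 fold change (cisplatin minus PBS, on log2(FPKM + 1)) on the horizontal axis and its list on the vertical axis, where the number in brackets counts the tested genes and the black line is the median. The medians are 1.15 for the members, 1.30 for the progenitor list, 1.25 for macrophages, 1.06 for neutrophils, 1.04 for B cells, 0.93 for basophils and mast cells and -2.19 for the ID8 and mesothelial list, and under the Y-linked scaling the members have a median of 0.18 with Ms4a4c and Ms4a6b below 0.

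Likeness of pattern was measured as the mean absolute difference over the 6 libraries of log2(FPKM + 1), each gene centred on its own mean. Nearest to Ms4a3 were Ednrb, the endothelin B receptor (0.109), Vcan, the matrix proteoglycan versican (0.130), and Thbs1, thrombospondin (0.141). Nearest to Ms4a4c were Timm17a, of the mitochondrial import machinery (0.0156), Ercc3, a helicase of DNA repair and transcription (0.0202), and Twistnb, of RNA polymerase I (0.0229). Ednrb was at 12.5 ± 0.83 and 0.69 ± 0.11 FPKM and Thbs1 at 930 ± 4.95 and 136 ± 4.43 FPKM, so genes of very different level lay near Ms4a3 on this scale. In mean FPKM they differed 18.2-fold and 6.81-fold between the groups, against 10.5-fold for Ms4a3. With 6 libraries in 2 groups, this likeness reflects mostly the size of the group difference on log2(FPKM + 1).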

How the data were processed

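Poly(A) RNA of 6 co-culture libraries was sequenced by the study. The submitters' processing notes name fastp, HISAT2 2.0.5, featureCounts 1.5.0-p3 and mm10, whereas the study's methods name another aligner, so the route to the table is uncertain. Read length and strand setting are not given in the sources used here. The authors deposited 1 table of FPKM values per gene and library, normalised for gene length and library size. For this report FPKM were taken as log2(FPKM + 1), genes with at least 1 FPKM in at least 3 libraries were kept, and limma 3.58.1 (R 4.3.3, empirical Bayes with trend, Benjamini-Hochberg) compared 3 cisplatin with 3 PBS libraries. The fit was tested on simulated data, but no outcome of that is given here, so nothing is read from it. Since FPKM are not counts, reads recovered from them (100% of low values whole within 0.1 read) served only as an alternative. Gene coordinates equalled GENCODE M21 on GRCm38 for 98.3% of genes and for all 9 members. Upstream sequences came from RefSeq (GRCm38) and were aligned with Biopython 1.88. Members and lists were chosen with earlier results of these data known. Named genes were all members, every other family gene with a read, all tested partners, the 2 called marker genes of largest change per list, 3 genes of nearest pattern for the members of largest and smallest change, and 2 flanking genes a side (other markers and BE692007 were chosen after their values were seen). Same-group libraries correlated at 0.984 to 0.989 and libraries of different groups at 0.872 to 0.877.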

Additional observations from a re-analysis of the deposited data

How the results depend on the processing

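Across 19 other settings, 0 members were called lower, and the number called higher was 3 to 5 except for 2 settings. It was 1 with scaling by the Y-linked genes and 7 with the adjusted p alone, against 4 in the report. In these fits, in that order, 85, 4424 and 628 of 13441 tested genes were called higher. Nothing is read from the member counts, because this contrast chose the members. Leaving out 1 library at a time gave 4 each time, with 622 to 671 of all tested genes called higher. The log2 difference of the summed members, 1.46 in the report, was 1.53 after quantile normalisation, 0.46 with the Y-linked scaling, 1.55 with scaling by the total of recovered reads and between 1.44 and 1.48 without 1 library. Of the listed genes that are not members, 35 were called higher, and this became 5 with the Y-linked scaling, 56 with the adjusted p alone and 22 with a test against a log2 fold change of 1, and 34 to 35 without 1 library.

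The Y-linked scaling put Ms4a4c (-0.60), Ms4a6b (-0.17), Ms4a4b (-0.48), Cdk2 (-0.68), Fcer1g (-0.90), Fcgr3 (-0.028), Cd44 (-0.65), Timm17a (-0.50), Ercc3 (-0.56) and Twistnb (-0.52 on the log2 scale) below 0. The values of Ms4a6b and Fcgr3 lie within the spread of the Y-linked genes themselves, so their sign is not resolved. Without 1 PBS library Ms4a4b was between -0.0081 (without PBS replicate 2) and 0.16 (without PBS replicate 3). That scaling moved the median of all genes to -0.83 and left 85 genes called higher and 5181 lower, where the report's fit had 628 and 1514. Quantile normalisation moved the median by 0.10. On recovered reads limma voom called 1227 genes higher and 1862 lower, a pseudocount of 0.1 gave 973 and 1981, and TPM rescaling 874 and 1882. All 3 added Ms4a7 to the called members. A test against a log2 fold change of 1 gave 240 and 982, and the adjusted p alone 4424 and 4721. A filter at 5 FPKM left 8673 genes, with 443 called higher.

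The replicate numbers did not pair the libraries (correlation of deviations -0.104, -0.086 and -0.024). With a replicate block, 4 members were called higher and 0 lower, as without it, and 625 genes were called higher and 1515 lower. Ms4a14 was left out by the filter at 1 FPKM and had a log2 fold change of 0.68 without it. Ms4a8a had 1 and 7 reads in the groups, too few to show a difference. The cause of these shifts was not tested.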
